A study of Homo sapiens with 12 samples.

Results

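The cadherins and protocadherins described here are the 87 genes, of 29972 listed in each of the authors' deposited tables, whose symbol is CDH or PCDH followed by a number, or PCDHA, PCDHB, PCDHGA, PCDHGB or PCDHGC followed by a number. They were taken by name and not by a measured value, but the rule was set with earlier results of these data known. They fall into 5 type I classical cadherins, 13 type II classical cadherins, 5 other CDH-numbered genes, 11 non-clustered protocadherins and 53 clustered protocadherins. The last group holds 13 PCDHA, 18 PCDHB and 22 PCDHG rows. Another 14 listed names begin with CDH or PCDH but lie outside the rule, such as CDHR1, PCDH11X and PCDHAC1.

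The study sequenced polyadenylated RNA from 2 established triple-negative breast cancer lines, MDA-MB-436 and BoM-1833, the latter a bone-homing derivative of MDA-MB-231. Cells of each line were transfected with 5 nM of a non-targeting siRNA pool (siNT) or with a 1:1 mixture of 2 siRNAs against PHF19 (siPHF19), and RNA was taken 72 h later. PHF19 is an accessory subunit of Polycomb repressive complex 2, which methylates histone H3 at lysine 27. The 4 groups hold 3 libraries each, and the labels do not say whether these came from separate cultures, so p-values measure the spread between these libraries, which may be technical. Because both PHF19 siRNAs were given together against 1 control pool, changes that follow the loss of PHF19 and changes due to either siRNA alone cannot be told apart.

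PHF19 itself fell from between 2942 and 3763 to between 315 and 340.1 normalized counts in MDA-MB-436, and from between 1669 and 1711 to between 173 and 201 in BoM-1833. The libraries held 13.7 to 24.0 M reads in listed genes. Of the 4 epithelial markers examined, KRT8 and KRT18 were present in every library and were called higher after siPHF19 in both lines (by 0.69 and 0.26 on the log2 scale for MDA-MB-436, and by 0.70 and 0.46 for BoM-1833, in the authors' deposited tables). The mesenchymal marker VIM lay between 18097 and 20231 normalized counts in MDA-MB-436 libraries and between 62776 and 76715 in BoM-1833, with log2 fold changes of -0.10 (DESeq2 adjusted p 0.220, not called) and -0.21 (0.00213, called lower) in the authors' deposited tables. FN1, the other mesenchymal marker, was called in neither line (0.55, DESeq2 adjusted p 0.109, and -0.29, adjusted p 0.532, in the authors' deposited tables). The epithelial marker EPCAM lay between 79.5 and 138 normalized counts over both lines and was called in neither (0.21 and -0.39, DESeq2 adjusted p 0.551 and 0.271 in the authors' deposited tables). KRT19 had 1 read in MDA-MB-436, and between 5228 and 6261 normalized counts in BoM-1833, where it was not called (-0.11, DESeq2 adjusted p 0.342 in the authors' deposited table). ESR1 and PGR stayed at or below 3.97 normalized counts, ERBB2 lay between 932 and 1179, and of the 4 markers of other cell types, MBP reached 2485 and PECAM1 404. Their part in the results below was not tested, and in these bulk RNA samples fewer expressing cells and less RNA per cell cannot be told apart.

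Cadherins are transmembrane proteins whose extracellular repeats bind calcium and adhere to cadherins on the neighbouring cell. Classical cadherins bind β-catenin or plakoglobin and p120-catenin through their cytoplasmic tails, and α-catenin links them to actin. Loss of E-cadherin (CDH1) with gain of N-cadherin (CDH2) is a known feature of mesenchymal carcinoma cells. Non-clustered protocadherins lack the catenin-binding tail, and clustered protocadherins, encoded in tandem arrays, are best known for giving neurons individual surface identities.

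After PHF19 siRNA, 5 of the 87 genes changed in at least 1 line. PCDH7, a non-clustered protocadherin, rose in both lines, and CDH4 (R-cadherin) fell in both. CDH2 (N-cadherin) rose and CDH13 (T-cadherin) fell in MDA-MB-436, and CDH11 (OB-cadherin) rose in BoM-1833. All 5 changes were smaller than 2-fold. In MDA-MB-436 the authors' deposited table tested 7 members and called 4 of them, at an adjusted p under 0.05 by DESeq2, against 22.1% of all 14243 genes tested. In BoM-1833 the authors' deposited table tested 12 members and called 3, against 10.9% of 12906 genes. A gene without an adjusted p there, usually because of too few reads, is called not tested here.

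Most members were listed at 0 or had few reads. Of the 87, 56 were listed at 0 in all 12 libraries, namely all 53 clustered protocadherins, the type II cadherins CDH9 and CDH19, and CDH16. A further 17 had some reads but no test in either line, among them CDH1, CDH3 and CDH5. Only 14 members reached 10 reads in at least 3 libraries of a line, and the same 14 were tested in at least 1 table. The median log2 fold change of the 7 members tested in MDA-MB-436 was 0.05 and that of the 12 tested in BoM-1833 was 0.22, beside -0.002 and -0.004 over all genes tested.

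The gene with the largest relative rise in both lines among the called members was PCDH7 (chromosome 4, 30720415 to 31146805, plus strand, GENCODE v29 on GRCh38). It belongs to the delta protocadherins and has been studied in breast and lung cancer metastasis. Read from RefSeq on GRCh38.p14, the 250 bases just before its start in RefSeq (chr4:30720119-30720368, plus strand) are shown because this gene was called in both lines. That start lies 46 bases before the GENCODE start. CG dinucleotides, the target of DNA methylation and a feature of Polycomb-bound promoters, are in capitals.
PCDH7: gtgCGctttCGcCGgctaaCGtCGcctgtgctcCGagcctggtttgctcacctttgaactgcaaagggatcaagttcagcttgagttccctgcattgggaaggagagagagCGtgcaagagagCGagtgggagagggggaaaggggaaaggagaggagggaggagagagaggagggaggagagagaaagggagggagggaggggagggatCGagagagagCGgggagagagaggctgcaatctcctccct
The window holds 10 CG, against a median of 11 over the same window of 35116 RefSeq promoters, and 52.2% of these held as many or more. Over the 17 CDH-numbered and non-clustered members whose RefSeq start lies within 1 kb of the GENCODE start, on either side, the median was 10, with 10 in the 7 that reached 10 reads in 3 libraries and 11.5 in the other 10. No methylation or binding was measured in these samples.

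In MDA-MB-436, PCDH7 had 225, 312 and 316 normalized counts in the siNT libraries and 539, 555 and 508 after siPHF19. All 3 siPHF19 libraries lay above all 3 controls. The log2 fold change in the authors' deposited table was 0.91 (SE 0.14, DESeq2 adjusted p 2.51e-09), a 1.88-fold rise. In BoM-1833 its level was lower, with 110.3, 109 and 148 normalized counts in the controls and 261, 242 and 196 after siPHF19, again without overlap. There the authors' deposited table gave 0.93 (SE 0.18, DESeq2 adjusted p 7.75e-06), a 1.91-fold rise. The 2 changes differed by 0.03 on the log2 scale, with a 95% interval from -0.42 to 0.47.

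**Figure D1:**
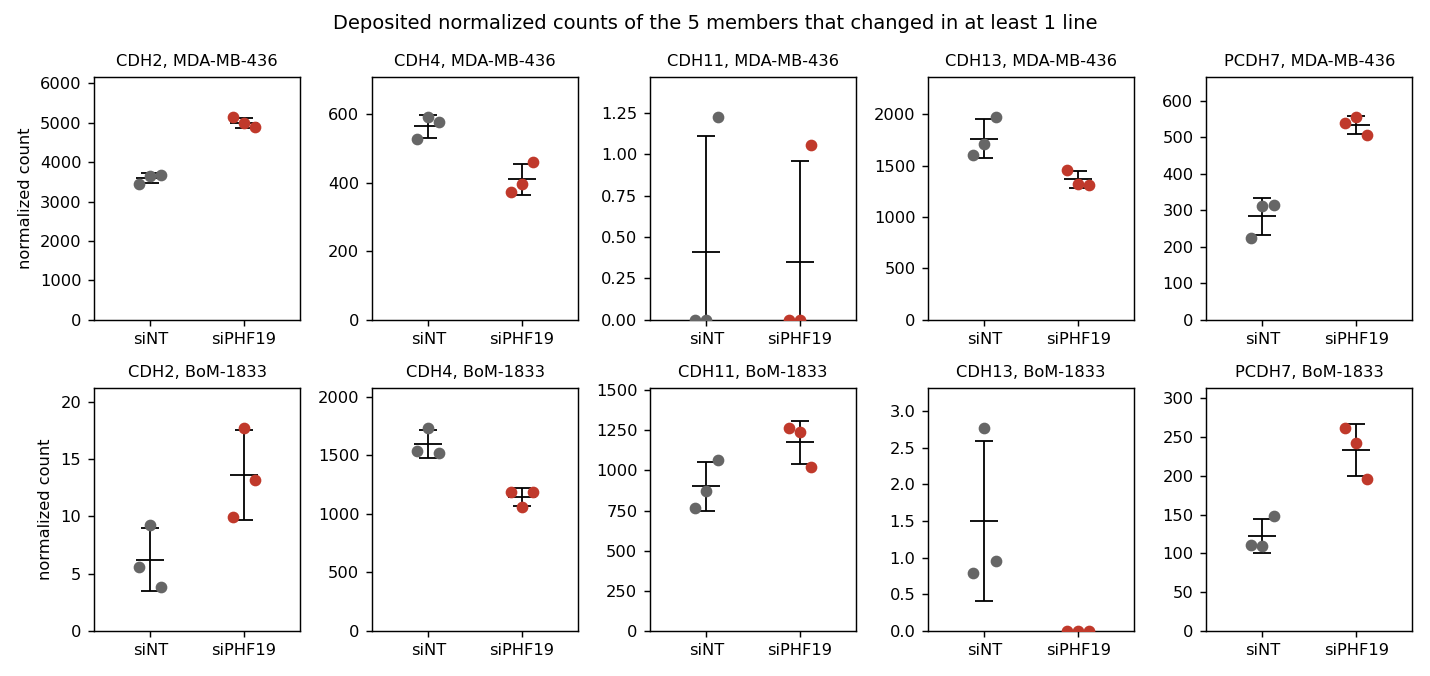
Normalized counts (vertical axes, from 0, scaled for each panel) of the 5 members that changed in at least 1 line, for siNT (grey) and siPHF19 (red) in MDA-MB-436 (top row) and BoM-1833 (bottom row). Points are the 3 libraries of a group, and the bar and whiskers are their mean and SD. PCDH7 libraries lie above and CDH4 libraries below their controls in both rows, while CDH11 in MDA-MB-436 and CDH13 in BoM-1833 stay under 3 normalized counts.

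Among the 5 type I classical cadherins, CDH2 and CDH4 were the ones tested in MDA-MB-436, and they changed in opposite directions. CDH2 (chromosome 18, 27950966 to 28177446, minus strand), the N-cadherin of neural and mesenchymal cells, had 3451, 3653 and 3675 normalized counts in the controls and 5135, 5000.3 and 4882 after siPHF19. The lowest siPHF19 library was above the highest control. In the authors' deposited table its log2 fold change was 0.48 (SE 0.06, DESeq2 adjusted p 2.46e-12), a rise of 39.3%. In BoM-1833 the gene was near the limit of detection, with 5.56, 9.22 and 3.82 normalized counts in the controls and 9.93, 17.7 and 13.2 after siPHF19. These groups did not overlap either, and the authors' deposited table gave 1.13 (SE 0.67) with no adjusted p.

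CDH4 (chromosome 20, 61252426 to 61940617, plus strand) encodes R-cadherin, a close relative of N-cadherin first described in retina. It fell from 527, 591 and 576 to 373, 396 and 462 normalized counts in MDA-MB-436, and from 1537, 1729 and 1521 to 1185, 1057 and 1186 in BoM-1833. In neither line did the groups overlap. The authors' deposited table gave -0.46 (SE 0.12, DESeq2 adjusted p 0.000810) for MDA-MB-436 and -0.48 (SE 0.08, DESeq2 adjusted p 3.93e-07) for BoM-1833. The difference between the lines was -0.02, with a 95% interval from -0.30 to 0.26.

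The remaining type I genes were close to 0. CDH1, the E-cadherin of epithelia, had 5 reads in the 6 MDA-MB-436 libraries together and 54 in the 6 BoM-1833 libraries, where 1 siPHF19 library (replicate 3) held 27.6 normalized counts and the other 5 between 4.61 and 8.26. CDH3, the P-cadherin of basal epithelium, had 32 and 31 reads in all. CDH15, the M-cadherin of muscle, had 11 and 37. None of these 3 was tested in either line.

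Of the 13 type II classical cadherins, CDH11 was the most abundant in BoM-1833 by normalized count. CDH11 (chromosome 16, 64943753 to 65126112, minus strand) encodes OB-cadherin, named for osteoblasts and found in mesenchymal cells. It had 767, 871 and 1068 normalized counts in the BoM-1833 controls and 1262, 1240 and 1023 after siPHF19. Control replicate 3 was above siPHF19 replicate 3, so the groups overlapped. The authors' deposited table called it higher, by 0.38 (SE 0.11, DESeq2 adjusted p 0.0102). This call was lost in DESeq2 fits without siNT replicate 2, without siPHF19 replicate 1 or without siPHF19 replicate 2, with adjusted p values of up to 0.139. MDA-MB-436 had 2 CDH11 reads in its 6 libraries.

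CDH24 (chromosome 14, 23047062 to 23057538, minus strand), a widely expressed type II cadherin, was at a similar level in both lines and was not called in either. It had 330, 324 and 351 normalized counts in the MDA-MB-436 controls and 301, 355 and 380.2 after siPHF19. In BoM-1833 it had 313, 333 and 314 in the controls and 300.0, 372 and 322 after siPHF19. The groups overlapped in both lines, and the 95% interval of the log2 fold change ran from -0.20 to 0.30 in each, from the authors' deposited table.

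CDH12 and CDH18, type II cadherins known mainly from brain, lie on chromosome 5. CDH12 had 3.27, 11.6 and 3.67 normalized counts in the MDA-MB-436 controls and 20.7, 15.7 and 16.9 after siPHF19, without overlap. The authors' deposited table gave 1.44 (SE 0.63, DESeq2 adjusted p 0.0843). Of 9 other fits that tested it, 3 called it, by the quasi-likelihood test of edgeR and by limma, with adjusted p values down to 0.0319. The other 6 did not, with DESeq2 adjusted p up to 0.268 without 1 library. Its control libraries held 3, 15 and 3 reads. In BoM-1833, CDH12 had 39.7, 36.0 and 49.6 normalized counts against 68.5, 51.9 and 42.0 with overlap, and the authors' deposited table gave 0.38 (SE 0.31, DESeq2 adjusted p 0.541). CDH18 had between 125 and 134 normalized counts in the BoM-1833 controls and between 97.3 and 144 after siPHF19, with a change of -0.12 (SE 0.20, DESeq2 adjusted p 0.811) in the authors' deposited table. In MDA-MB-436 it was low, with 9.82, 10.9 and 6.11 against 2.18, 4.14 and 3.17 normalized counts and no adjusted p. CDH10, another type II cadherin, had 40 reads in the 6 BoM-1833 libraries and 3 in those of MDA-MB-436. It was not tested in either line.

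The 5 other CDH-numbered genes are those not counted here as type I or type II classical cadherins. CDH13 (chromosome 16, 82626803 to 83800640, plus strand) encodes T-cadherin, which is held in the membrane by a glycosylphosphatidylinositol anchor and has no cytoplasmic tail. In MDA-MB-436 it had 1603, 1711 and 1969 normalized counts in the controls and 1462, 1322 and 1314 after siPHF19, without overlap. The authors' deposited table gave -0.37 (SE 0.10, DESeq2 adjusted p 0.00141), a fall to 0.776 of the control. BoM-1833 had 5 CDH13 reads in its 6 libraries, all in controls. CDH23, a component of the tip links of hair cells, had 24 reads in all in MDA-MB-436. CDH26 had 19 reads there, CDH17, the liver-intestine cadherin, 8 reads in BoM-1833, and CDH16 none.

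Beside PCDH7, 6 of the 11 non-clustered protocadherins were tested in BoM-1833 and PCDH1 in MDA-MB-436, and none of them was called. PCDH1, known from airway epithelium, had 44.8, 61.2 and 66.0 normalized counts in the MDA-MB-436 controls and 37.1, 38.9 and 42.2 after siPHF19. The siPHF19 libraries were all lower, and the authors' deposited table gave -0.54 (SE 0.29, DESeq2 adjusted p 0.177). In BoM-1833 PCDH1 had between 38.4 and 44.5 in all 6 libraries. PCDH20 had 76.2, 109.7 and 137 normalized counts against 138, 129 and 137 in BoM-1833, with a change of 0.33 (SE 0.22, DESeq2 adjusted p 0.420) in the authors' deposited table.

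PCDH9, PCDH18, PCDH10 and PCDH17 are delta protocadherins known mainly from the nervous system. PCDH9 lay between 87.3 and 115 normalized counts and PCDH18 between 48.4 and 91.6 over the 6 BoM-1833 libraries, and the groups overlapped for both. PCDH17 had 11.9, 29.5 and 24.8 against 34.8, 16.5 and 28.8 there. PCDH10 had 29.4, 26.7 and 33.4 normalized counts in the BoM-1833 controls and 39.7, 40.1 and 46.8 after siPHF19, without overlap, and the authors' deposited table gave 0.50 (SE 0.34, DESeq2 adjusted p 0.428). In MDA-MB-436 PCDH10 had 1.09, 2.33 and 1.22 against 4.36, 7.45 and 9.51, likewise without overlap but on 27 reads in all. It is named here after its values were seen. PCDH8, PCDH12, PCDH15 and PCDH19 were not tested in either line, and the highest of their values in any library was 9.11 normalized counts.

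**Figure D2:**
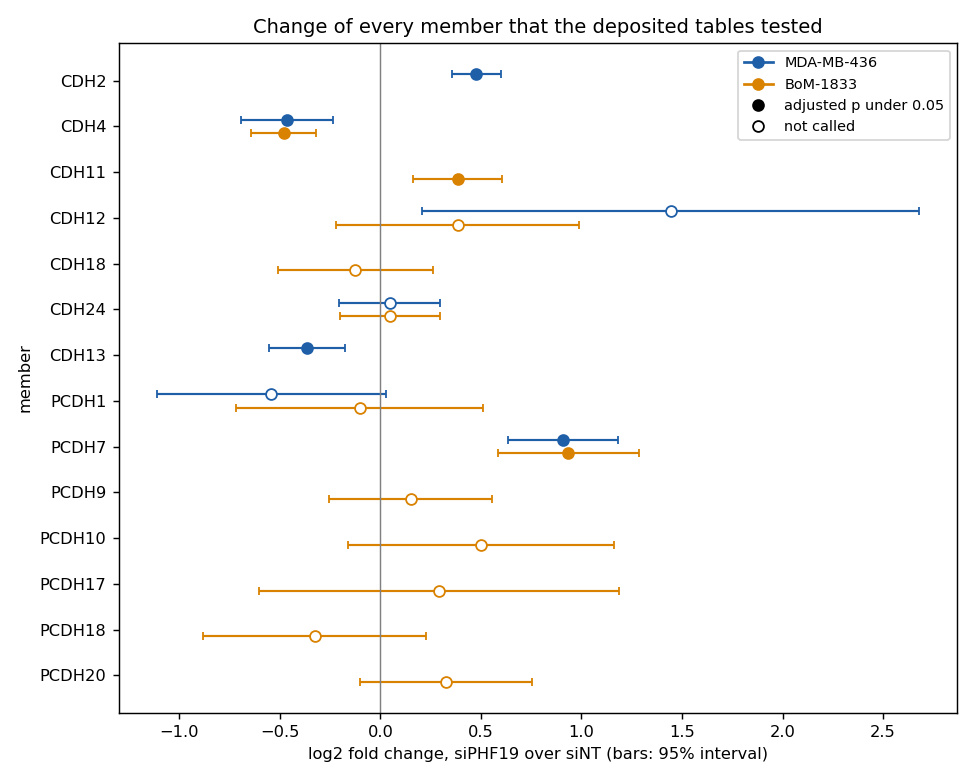
Log2 fold change of siPHF19 over siNT (horizontal axis, with 95% intervals) in the authors' deposited tables for each of the 14 members tested in at least 1 line, in MDA-MB-436 (blue) and BoM-1833 (orange). Filled points passed an adjusted p of 0.05. CDH4 and PCDH7 have filled points in both lines, on opposite sides of 0.

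Groups that did not overlap were common in these data. In MDA-MB-436 the 3 siPHF19 libraries were all above or all below the controls for 6 of the 7 tested members, against 42.2% of all genes tested. In BoM-1833 this held for 3 of 12, against 31.0%. Among genes with reads but no adjusted p, the siPHF19 libraries all lay on 1 side of the controls for 4 of 19 members in MDA-MB-436, against 8.44% of 5625 such genes, and for 3 of 16 in BoM-1833, against 8.94% of 6062.

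Whether a member responded differently in the 2 lines was tested by a z test on the difference of the deposited log2 fold changes, over the 12290 genes tested in both. Of the 5 members tested in both lines (CDH4, CDH12, CDH24, PCDH1 and PCDH7), 0 passed, against 4.89% of all genes. Likewise 0 had an unadjusted p under 0.05, for which no share over all genes was taken. With 5 members, neither count is read as a result about them. The estimated differences, BoM-1833 minus MDA-MB-436, ran from -1.06 for CDH12 (95% interval -2.44 to 0.32) to 0.44 for PCDH1 (-0.40 to 1.28). Interaction terms fitted to reads recovered from the deposited values, over 14 members, called 0, against 4.48% of all genes tested by edgeR and 6.30% by DESeq2. An unadjusted p under 0.05 was found by edgeR for 3 of these members (CDH13, CDH18 and PCDH10), against 18.8% of all genes, and by DESeq2 for 1 (CDH18), against 18.3%. Among these members the smallest adjusted p was 0.126, for CDH18 by edgeR. For CDH2, CDH11 and CDH13, which changed in a single line, the other line held at most 57 reads of the gene in its 6 libraries. The same limit of 57 reads in 1 line held for all of the 14 outside the 5 tested in both lines. For those members the interaction rests on few reads in 1 line. The 0 calls are therefore not read as a like response in both lines.

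Several members that were abundant in 1 line were nearly absent from the other, among them CDH2, CDH11 and CDH13. Levels in the siNT libraries were compared on recovered reads normalized together, by limma on log2 CPM (counts scaled to an equal total in each library). Of 14 members tested, 12 differed between the lines, against 80.5% of 14635 genes, so the count itself is near the background. Of the 14, 10 met the minimum of 10 reads in all 3 siNT libraries of a single line, so these were tested through the line in which they are high and the count supports nothing. There were 3 higher in MDA-MB-436 (CDH2, CDH13 and PCDH7, against 41.1% of all genes) and 9 higher in BoM-1833 (CDH4, CDH11, CDH12, CDH18, PCDH9, PCDH10, PCDH17, PCDH18 and PCDH20, against 39.4%). CDH24 and PCDH1 were not called.

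CDH2 had 10880 reads in the 3 MDA-MB-436 controls and 21 in those of BoM-1833, a ratio of 509.9 in mean CPM. CDH13 had 5286 against 5 reads, a ratio of 1059 after scaling to total reads, with a 95% counting interval from 454 to 3263. CDH11 went the other way, with 1 read in the MDA-MB-436 controls and 3030 in those of BoM-1833, a ratio of 3025 with an interval from 542 to 119501. These intervals are exact binomial ones and cover counting error only. PCDH20 had 3 against 359 reads and PCDH9 2 against 325. PCDH17 had 0 against 73 reads and was at least 25.3-fold higher in BoM-1833, taking 3 reads over the 3 control libraries as the floor. CDH4, well covered in both lines, was 3.21-fold higher in BoM-1833, and PCDH7 2.04-fold higher in MDA-MB-436 (limma log2 differences of 1.67, SE 0.08, and -1.03, SE 0.17, with adjusted p 1.47e-07 and 0.000516).

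**Figure D3:**
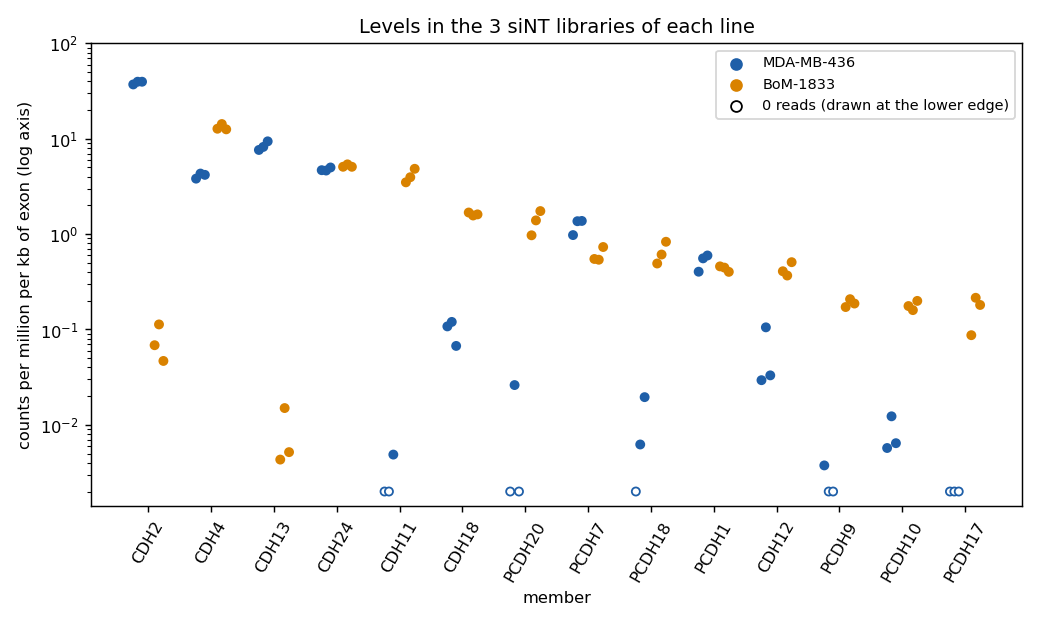
CPM per kb of exon (log axis) in the 3 siNT libraries of MDA-MB-436 (blue) and BoM-1833 (orange) for the 14 members with at least 10 reads in 3 libraries of a line. Open circles at the lower edge are libraries with 0 reads. CDH24 and PCDH1 lie close together in both lines, and PCDH7 lies 2.04-fold higher in MDA-MB-436. CDH2, CDH13, CDH11, PCDH9 and PCDH20 are separated by more than 2 orders of magnitude in their means.

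To rank the members within a line, CPM values were divided by the exonic length of each gene in kb. In the MDA-MB-436 controls CDH2 led at 38.8 ± 1.45 (SD, n = 3), followed by CDH13 at 8.41 ± 0.90, CDH24 at 4.77 ± 0.19, CDH4 at 4.10 ± 0.26, PCDH7 at 1.24 ± 0.23 and PCDH1 at 0.52 ± 0.10. Each of these 6 had all 3 libraries above those of the next. CDH18 and CDH12, which follow, overlapped each other. In the BoM-1833 controls CDH4 led at 13.2 ± 0.94 (SD, n = 3), before CDH24 at 5.18 ± 0.18, CDH11 at 4.09 ± 0.69 and CDH18 at 1.62 ± 0.06. Next came PCDH20 at 1.37 ± 0.39, PCDH18 at 0.64 ± 0.17, PCDH7 at 0.61 ± 0.11, PCDH1 at 0.44 ± 0.03 and CDH12 at 0.43 ± 0.07. Of these neighbours, CDH18 and PCDH20, PCDH18 and PCDH7, and PCDH1 and CDH12 overlapped. The order depends on the length used. With the longest transcript in place of all exonic bases, a choice made after the data were seen, CDH11 stood above CDH24 in BoM-1833.

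Summed over the 18 classical cadherins, the level per kb was 45.9, 48.9 and 49.0 in the MDA-MB-436 controls and 62.9, 62.5 and 62.1 after siPHF19. The siPHF19 libraries were all higher, and the difference of 0.38 on the log2 scale had the smallest p that an exact 2-sided permutation test of 3 against 3 libraries allows, 0.1. CDH2 made up 80.9% ± 0.03 (SD, n = 3) of the sum before and 86.8% ± 1.51 after. The sum therefore largely repeats the CDH2 change and says little of the class as a whole. CDH4 made up 8.56% ± 0.25 before and 4.79% ± 0.57 after, and CDH24 9.97% ± 0.42 and 7.91% ± 0.99. Such shares also move when another member changes. The level per kb of CDH24 itself was 4.77 ± 0.19 before and 4.94 ± 0.59 after, and that of CDH4 4.10 ± 0.26 and 2.99 ± 0.34.

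In BoM-1833 the sum was 23.8, 26.0 and 25.0 in the controls and 22.6, 22.8 and 21.8 after siPHF19. The difference was -0.15 on the log2 scale (exact permutation p 0.1 in the same unplanned test, which could not go lower). With the longest transcript as length it was -0.09 and the groups overlapped (exact permutation p 0.3). CDH4 went from 52.9% ± 2.39 to 41.5% ± 3.43 (SD, n = 3) of the sum, CDH11 from 16.4% ± 2.58 to 23.4% ± 2.29, and CDH24 from 20.8% ± 0.52 to 23.6% ± 2.28. With the longest transcript these shares were 47.1% and 35.3% for CDH4, 25.1% and 34.3% for CDH11, and 17.3% and 18.7% for CDH24, so CDH11 stood above CDH24 in both groups. CDH2, the leading cadherin of MDA-MB-436, was 0.30% ± 0.12 here before and 0.73% ± 0.20 after. The level of CDH24 itself, per kb of exon, was 5.18 ± 0.18 in the BoM-1833 controls and 5.28 ± 0.57 after siPHF19.

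**Figure D4:**
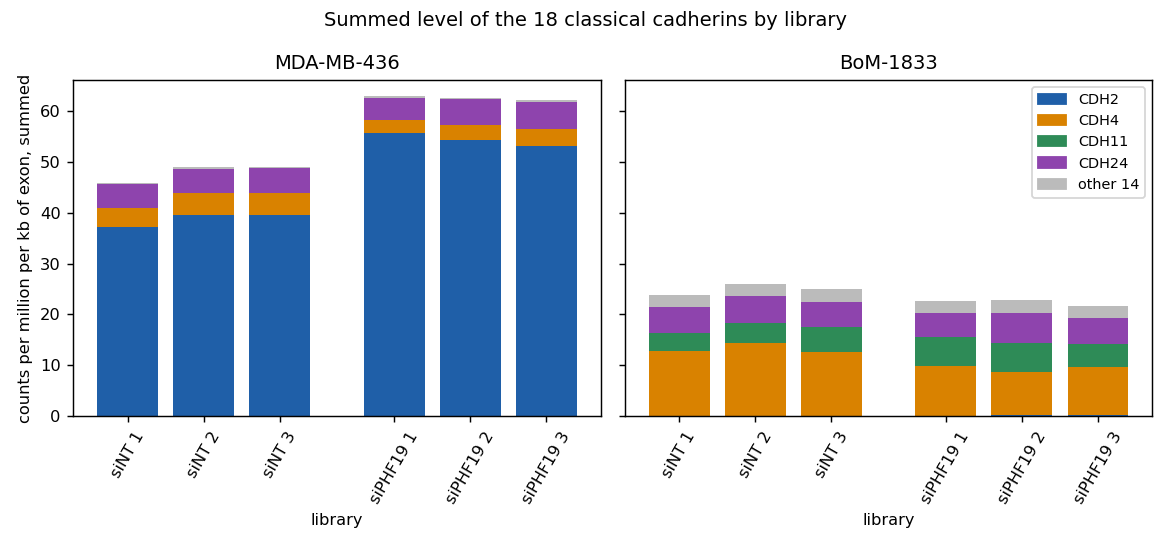
Summed CPM per kb of exon (vertical axis, from 0) of the 18 classical cadherins in each library (bars) of MDA-MB-436 (left) and BoM-1833 (right), divided by gene. The siPHF19 bars of MDA-MB-436 reach 62.1 to 62.9, above the controls at 45.9 to 49.0, and the growth lies in the CDH2 segment. In BoM-1833 the CDH4 segment is smaller after siPHF19.

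All 53 clustered protocadherin rows were listed at 0 in all 12 libraries. They belong to 3 neighbouring arrays on chromosome 5, which span 140786136 to 141512981 in GENCODE v29, 726.846 kb, by the 51 rows whose names matched. The tables hold 57 rows inside this span, and every one of them was listed at 0. These include 6 rows that are not members (PCDHAC1, PCDHAC2, PCDHB19P, PCDHGB8P, TAF7 and SLC25A2). TAF7 encodes a subunit of the general transcription factor TFIID, which dividing cells use, and it too was listed at 0 in every library. For this reason the zeros are reported as listed values, and no level, upper limit or fold is drawn from them. Over the whole tables, 8863 of 29972 rows were listed at 0 in all 12 libraries.

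In the 400 kb before and 700 kb after the span, all 25 protein-coding rows had reads, with median mean normalized counts of 1013 for MDA-MB-436 and 733 for BoM-1833. The nearest coding neighbours were ZMAT2 before the span, at a mean of 1764 and 1325 normalized counts in MDA-MB-436 and BoM-1833, and DIAPH1, a formin, after it, at 7437 and 5176. HDAC3, a histone deacetylase, followed at 1940 and 1614. The non-clustered protocadherins PCDH1 and PCDH12, on the same side, had 48.4 and 40.9, and 3.78 and 0.36. Another 5 flanking rows, for microRNAs and vault RNAs, were at 0.

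**Figure D5:**
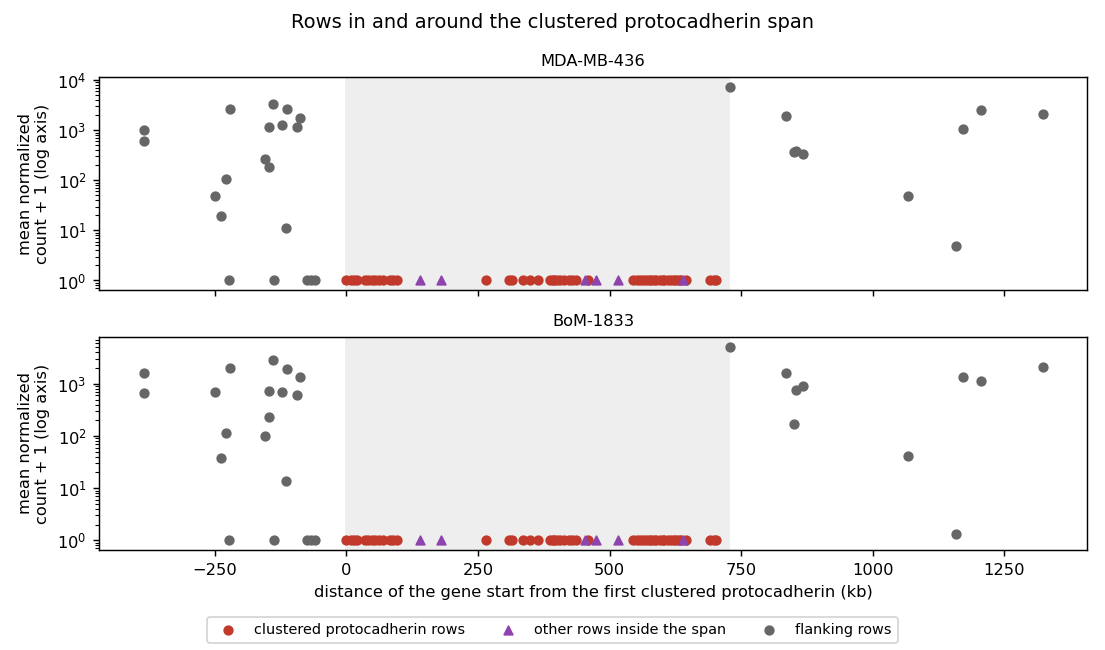
Mean normalized count plus 1 (log axis) of each listed gene against the distance of its start from the first clustered protocadherin (kb), in MDA-MB-436 (top) and BoM-1833 (bottom). Red points are clustered protocadherins, purple triangles the 6 other rows inside the span (shaded) and grey points flanking rows. Every point in the shaded span lies at 1, which stands for 0 counts, and all 25 protein-coding flanking rows lie above it.

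Genes that work with cadherins were examined through 4 lists. Of the 13 catenins and adaptors found in the tables, 11 were tested in MDA-MB-436, with 4 called higher and 1 lower (10.5% and 11.5% of all genes tested), and 10 in BoM-1833, with 2 higher and 1 lower (5.21% and 5.72%). The median log2 fold change of the list was 0.03 and 0.02. JUP, which encodes plakoglobin, the catenin that can replace β-catenin at classical cadherins and also sits in desmosomes, rose from 277, 336 and 371 to 554, 569 and 549 normalized counts in MDA-MB-436. In BoM-1833 it rose from 1207, 1147 and 1258 to 1758, 1669 and 1635. The siPHF19 libraries were all higher in both lines, and the authors' deposited table gave 0.77 (SE 0.12, DESeq2 adjusted p 1.88e-08) and 0.49 (SE 0.07, DESeq2 adjusted p 5.61e-09).

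PKP4, a p120-catenin relative, was called higher by 0.32 and 0.28 in MDA-MB-436 and BoM-1833, and CTNNAL1, an α-catenin-like protein, lower by -0.70 and -0.34, in the authors' deposited table. In MDA-MB-436 that table also called CTNNBIP1, an inhibitor of β-catenin's binding to TCF factors, higher (0.38, DESeq2 adjusted p 0.00642). VCL, the actin linker vinculin, was called higher there by 0.26 (DESeq2 adjusted p 0.0361), but edgeR and limma did not call it, and the call was lost in 4 of the 6 fits without 1 library. PKP4 lost its MDA-MB-436 call without siPHF19 replicate 1 (DESeq2 adjusted p 0.0616), and CTNNBIP1 without siPHF19 replicate 1 or 3 (up to 0.106).

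Of 25 other genes of the cadherin superfamily, 14 were tested in MDA-MB-436 (3 called higher, 1 lower) and 11 in BoM-1833 (1 higher, 1 lower). Over all genes tested, 10.5% were called higher and 11.5% lower in MDA-MB-436, and 5.21% and 5.72% in BoM-1833. The median log2 fold changes of the list were 0.18 and 0.03, beside -0.002 and -0.004 over all genes tested. DSC3, a desmosomal cadherin, had 134, 152 and 183 normalized counts in the MDA-MB-436 controls and 264, 269 and 264 after siPHF19, a change of 0.77 (SE 0.15, DESeq2 adjusted p 1.23e-05) in the authors' deposited table. DSG2, a desmoglein, was called higher there by 0.35 (DESeq2 adjusted p 0.0129), a call lost without siPHF19 replicate 1 or 2. CLSTN2, a calsyntenin, had 0 reads in the 3 MDA-MB-436 controls and 27, 30 and 35 after siPHF19, at least 30.7-fold higher with a floor of 3 reads over the control group. CLSTN3, another calsyntenin, was called higher in BoM-1833 by 0.40 (DESeq2 adjusted p 0.00296 in the authors' deposited table), a call lost without siNT replicate 2 or siPHF19 replicate 1. CELSR1, a planar-polarity cadherin, was called lower in both lines, by -0.40 and -0.41 in the authors' deposited table, with the call lost in 3 of the 6 fits without 1 library in MDA-MB-436 and in 4 of 6 in BoM-1833.

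Among 10 proteases known to process cadherins, MDA-MB-436 had 9 tested and BoM-1833 had 8. FURIN, which cleaves cadherin precursors, was called higher in MDA-MB-436 by 0.38 (DESeq2 adjusted p 0.000975), and MMP9, a secreted protease at 17.1 normalized counts or fewer, lower by -2.30 (DESeq2 adjusted p 0.0148), in the authors' deposited table. MMP9 received no adjusted p in any fit without 1 library, so its call was not checked in that way. In BoM-1833 0 of 8 were called. Among 17 factors known at clustered protocadherin promoters, such as CTCF and cohesin subunits, all were tested in both lines. SMCHD1 and WIZ were called higher in MDA-MB-436, by 0.22 and 0.39 in the authors' deposited table, and 0 in BoM-1833. The same shares of all genes tested, 22.1% and 10.9%, stand beside these counts. SMCHD1 lost its call in 4 of the 6 fits without 1 library, and WIZ without siPHF19 replicate 1 (DESeq2 adjusted p 0.0534).

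The 3′ UTRs of the 5 called members were searched for AAACTG, on the transcript strand and in the GENCODE v29 transcript with the longest coding sequence. This 6-base sequence was chosen because it was known from these data to be frequent in genes that fell in both lines. It occurred in 67.1% of 362 such genes, in 34.2% of 298 genes that rose in both and in 39.5% of 9239 called in neither. The median 3′ UTR was 1506.5 bases in each of the called sets and 961 in the genes called in neither. As the sequence was picked from these same data, these shares are no support for it. The sites in the called members are shown with the match in capitals and 8 bases on each side.
CDH2 site: aagcttttAAACTGgagagact
PCDH7 site: ctttgatgAAACTGctggttta
CDH11 site A: atttaataAAACTGcgaggaca
CDH11 site B: gatagttgAAACTGcttatttt
CDH11 site C: agtatttgAAACTGctcctggg
Of the 5 called members, CDH2, PCDH7 and CDH11 carry the sequence, and these were called higher. CDH4 and CDH13, which were called lower, have 0 matches in 3674 and 346 bases of 3′ UTR. Over all 34 CDH-numbered and non-clustered members, 19 (55.9%) held a match, against 41.1% of 12766 genes tested in at least 1 line. The sets are not alike, since the members include genes tested in neither line, such as CDH7 and CDH19. The median 3′ UTR was 1372.5 bases in these members and 1026 in those genes. With 5 called members, no link between the sequence and the direction of change was tested. This describes letters in a sequence, and no binding was measured.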

How the data were processed

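Stranded mRNA libraries of 12 samples were sequenced. The submitters' processing notes name STAR, RSEM 1.3.1, DESeq2 1.46.0 and hg38. The annotation and the strand setting of the counting are not given in the sources used here. Per the file headers, the authors' deposited tables (1 per line, 29972 rows each) hold DESeq2 log2 fold changes, Wald statistics (a score, not used), p-values and adjusted p-values, with mean normalized counts and normalized counts per library (a signal scale: counts divided by size factors). All values were whole multiples of 1 step per library (tolerance 0.05 reads), so reads were recovered for the alternatives and for levels. Libraries held 13.7 to 24.0 M reads.

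The main test in each line was the authors' deposited adjusted p under 0.05, over the whole table. A DESeq2 1.42.0 fit to recovered reads made 3143 and 1411 calls, the numbers in the deposited tables. The difference between lines was a z test with Benjamini-Hochberg adjustment. Levels of siNT libraries were compared by limma 3.58.1 (prior count 2, TMM factors, at least 10 reads in 3 libraries). Alternatives used edgeR 4.0.16, limma on log2(value + 1) and log2(value + 5), other filters and factors, and leaving out each library. The scripts were tested on simulated data. Positions, lengths and 3′ UTRs came from GENCODE v29 by symbol (85 of 87 members matched), and promoters from RefSeq (21 of 34 members matched). Intervals are 95%.

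The members and the lists were chosen with earlier results of these data known. Genes named by the plan are all called members, the 5 highest of each class with reads and the called genes of the 4 partner lists. Some others, among them CDH6, PCDH10 and PCDH17, are described as well. Summed tests of the clustered families were planned but could not be run, since all their rows are at 0.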

Additional observations from a re-analysis of the deposited data

How the results depend on the processing

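Of the members called, CDH2, CDH4, CDH13 and PCDH7 in MDA-MB-436 and CDH4 and PCDH7 in BoM-1833 were called under every other fit run (edgeR, limma, DESeq2 with other factors or filters, and without each library). Requiring also an absolute log2 fold change of at least 1 left 0 of 4 members in MDA-MB-436 and 0 of 3 in BoM-1833. Leaving out 1 library gave 4 members in MDA-MB-436, 2 to 3 in BoM-1833, 0 that differed between lines, and 12 to 13 whose siNT level differed. With no filter on reads 19 members differed in siNT level, where 12 did with the filter, as more genes were tested. With the filter 80.5% of all 14635 genes tested differed. No share over all genes was taken for the fold-change limit, or for siNT levels without 1 library or without the filter. These counts are therefore not read as results about the members. The direction of 3 small changes that were not called reversed without 1 library: CDH24 in MDA-MB-436 (-0.027 to 0.14, negative without siPHF19 replicate 3), CDH24 in BoM-1833 (-0.042 to 0.12, negative without siPHF19 replicate 2) and CDH18 in BoM-1833 (-0.28 to 0.0075, positive without siPHF19 replicate 1).

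Same-numbered siNT and siPHF19 libraries had correlations of -0.307 to 0.039, so the numbers were not taken as pairs. A replicate block in DESeq2 gave 4 members in MDA-MB-436, 2 in BoM-1833 (CDH11 at an adjusted p of 0.0987) and 0 that differed between lines, and in limma 12 whose siNT level differed. Over all genes the block lowered the calls from 3143 to 1610, from 1411 to 610 and, between lines, from 601 to 190. Without 1 library they ran from 1767 to 3801, from 746 to 2046 and from 301 to 1056. No paired analysis was possible because all rows were 0 for the sums of clustered families, and no other setting gave these sums a value.

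The 17 members with reads but no adjusted p in either table were not tested, and nothing is said of whether they changed.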

Other observations

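Of the members with reads but no adjusted p whose groups did not overlap, CDH6 and PCDH10 were above and CDH18 and CDH23 below the controls in MDA-MB-436. CDH6, the K-cadherin of kidney, had 0, 1.55 and 1.22 normalized counts in the controls and 3.27, 4.14 and 8.45 after siPHF19, on 19 reads in all, and was listed at 0 in BoM-1833. CDH23 had 4.37, 5.43 and 6.11 normalized counts against 4.36, 1.66 and 2.11. In BoM-1833 CDH2 and CDH3 were above and CDH13 below. CDH3 had 2.38, 3.69 and 1.91 normalized counts in the controls and 13.9, 4.72 and 4.81 after siPHF19, on 31 reads, and in MDA-MB-436 its groups overlapped. These counts were made after the values were seen, and none of the 7 differences carries an adjusted p.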
